A study of Homo sapiens with 4 samples.

Results

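The Polycomb repressive complex genes described here are 9 genes taken by name, EZH1, EZH2, EED, SUZ12, JARID2, BMI1, RING1, RNF2 and CBX8, each found in 1 of the 56657 rows of the deposited count table. Their RNA was measured in TE5, a human cancer line grown from a squamous carcinoma of the esophagus, at day 7. The 2 groups were control hairpin (shControl, n = 2 libraries, labelled wild type) and hairpin against NUP153 (shNUP153, n = 2, labelled NUP153 knockdown), and both had been infected with lentivirus and selected with puromycin. NUP153 is a nucleoporin of the nuclear basket, the filaments on the nuclear side of the pore. The labels do not say whether the libraries of a group came from separate infections, so p-values measure the spread between these libraries only, which may be technical. Nor do they say whether both shNUP153 libraries carry 1 hairpin sequence, and effects of a hairpin on other transcripts cannot be told apart here from those of NUP153 loss.

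Polycomb proteins keep developmental genes silent through 2 kinds of chromatin-modifying complex. PRC2 methylates lysine 27 of histone H3 with EZH2 or EZH1 as the catalytic subunit, and EED and SUZ12 are needed for that activity. JARID2 is an accessory subunit that helps bring PRC2 to chromatin. PRC1 attaches ubiquitin to histone H2A through the RING-type ligases RNF2 (RING1B) or RING1 (RING1A), which pair with a PCGF protein such as BMI1. CBX8 is a chromodomain subunit that binds the methyl mark laid down by PRC2. EZH2 is often highly expressed in proliferating and tumor cells, and EZH1 is known to prevail in resting cells.

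Start-site upstream sequences are shown first for JARID2 and BMI1, whose RNA was higher in shNUP153, and for EZH2 and SUZ12, whose RNA did not pass the test. EED, the member that fell, is not shown because too few of its upstream bases lay outside annotated exons. They come from RefSeq (GRCh38.p14), which had 11 start sites for 8 of the members and none matched for CBX8. Annotated exon bases were left out. Capitals mark matches to the letters searched on both strands: TGACGTCA (the cyclic AMP response element, bound by CREB and ATF factors), TTTCGCGC, TTTGGCGC and TTTCCCGC (forms of the E2F site), TGACTCA (AP-1) and CCAAT (the CCAAT box, which reads ATTGG on the other strand).
JARID2, chr6:15248635-15248854, plus strand: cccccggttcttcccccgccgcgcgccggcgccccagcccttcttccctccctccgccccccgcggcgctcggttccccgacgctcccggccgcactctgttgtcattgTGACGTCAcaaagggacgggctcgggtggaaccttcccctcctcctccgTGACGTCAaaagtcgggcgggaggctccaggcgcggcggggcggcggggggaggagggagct
BMI1, chr10:22320849-22321098, plus strand: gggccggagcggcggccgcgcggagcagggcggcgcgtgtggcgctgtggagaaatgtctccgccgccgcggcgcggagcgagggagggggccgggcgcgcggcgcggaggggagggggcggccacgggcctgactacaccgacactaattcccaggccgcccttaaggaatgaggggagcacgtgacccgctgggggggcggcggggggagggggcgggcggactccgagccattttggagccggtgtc
EZH2, chr7:148884322-148884541, minus strand: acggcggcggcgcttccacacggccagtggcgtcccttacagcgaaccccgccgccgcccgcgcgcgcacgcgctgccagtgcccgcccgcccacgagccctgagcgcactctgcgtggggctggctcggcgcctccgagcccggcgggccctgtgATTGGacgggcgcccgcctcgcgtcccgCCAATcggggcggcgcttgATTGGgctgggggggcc
SUZ12, chr17:31936757-31937006, plus strand: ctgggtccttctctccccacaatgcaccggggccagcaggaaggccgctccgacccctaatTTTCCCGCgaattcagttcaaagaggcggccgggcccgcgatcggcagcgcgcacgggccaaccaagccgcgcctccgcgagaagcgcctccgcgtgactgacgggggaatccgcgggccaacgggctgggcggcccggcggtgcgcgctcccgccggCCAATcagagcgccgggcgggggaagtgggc

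The JARID2 stretch lies upstream of the second of its 2 RefSeq start sites and inside the gene, and holds 2 matches to TGACGTCA, which begin 111 and 62 bases before that start. Among 35116 RefSeq windows of the same 250 bases, 1.65% held at least 1 such match and 0.0541% held 2 or more. The window before the first JARID2 start site, not shown, held no TGACGTCA and 1 CCAAT, which begins 77 bases before that start. EZH2 held 4 CCAAT matches before its first start site, 1 of them in bases left out above, a number reached by 0.874% of windows. SUZ12 held TTTCCCGC, found in 1.39% of windows, and 1 CCAAT, found in 32% of windows. BMI1 held none of the letters before either of its 2 start sites. The EED window held 1 CCAAT, which begins 16 bases before its start site, and no other match. TGACTCA and the other 2 E2F forms were in none of the members' windows. A match is a description of the letters, and which start site TE5 cells use was not measured.

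The libraries held 22606593 to 27396268 counts. NUP153 (ENSG00000124789) measured 149 and 142 CPM (counts scaled to a common library size with TMM factors) in shControl and 67.9 and 81.9 in shNUP153, 1.94-fold lower (log2 fold change −0.96, SE 0.06, edgeR adjusted p = 1.05e-14). The squamous label was checked on 8 markers. TP63 was at 248 ± 3.14 CPM in shControl and KRT17 at 734 ± 14.9 (SD, n = 2), whereas KRT14 had only 6 to 13 counts. Of the 7 squamous markers tested, KRT17 (1.70-fold) and KRT13 (1.83-fold) rose and KRT5 (1.60-fold), SOX2 (1.27-fold) and KRT6A fell, while TP63 and DSG3 did not pass. The summed level of the 8 was 1235 and 1203 CPM in shControl and 1685 and 1686 in shNUP153. That rise was carried by KRT17, whose mean went from 734 CPM in shControl to 1245 in shNUP153. Only KRT17 and KRT13, 2 of the 7 tested, had a positive log2 fold change. Of 5 fibroblast markers DCN and LUM had 0 counts in all libraries, the leukocyte marker PTPRC had 0 to 3, and the endothelial marker PECAM1 0 to 3. The 5 fibroblast markers summed to 0.496 to 0.927 CPM. The 5 leukocyte markers summed to 5.18 and 5.06 CPM in shControl and 6.67 and 6.57 in shNUP153, nearly all of it ITGAM, which rose (log2 fold change 0.39, edgeR adjusted p = 0.0477). The 5 endothelial markers summed to 12.3 and 11.1 CPM in shControl and 25.2 and 24.1 in shNUP153, nearly all of it CDH5. Both endothelial markers tested rose, CDH5 (log2 fold change 1.11, edgeR adjusted p = 6.42e-11) and VWF (0.76, adjusted p = 0.0431). The part of the cell type markers in the results was not tested.

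In all, 4 of the 9 members passed edgeR's test at an adjusted p under 0.05. JARID2, BMI1 and RING1 rose and EED fell, by 1.11-fold to 1.31-fold, while EZH2, EZH1, SUZ12, RNF2 and CBX8 did not pass. Of the 16817 genes tested 32.4% passed, 15% higher and 17.4% lower. The members' count of 4 in 9 was not tested against that background. With total-count scaling 62.8% of all calls were higher, and with upper quartile scaling 57.6%, against 46.3% with TMM, and under all 3 the same split of 3 higher and 1 lower was counted among the members. The median log2 fold change was 0.07 over the members and 0.01 over all genes tested, and the median size of change was 0.12 against 0.20. In 7 of the 9 members all libraries of one group lay above those of the other, against 64.4% of all genes. All 9 members passed the filter on low counts. In bulk RNA, fewer cells expressing a gene and less of its RNA per cell cannot be told apart.

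**Figure D1:**
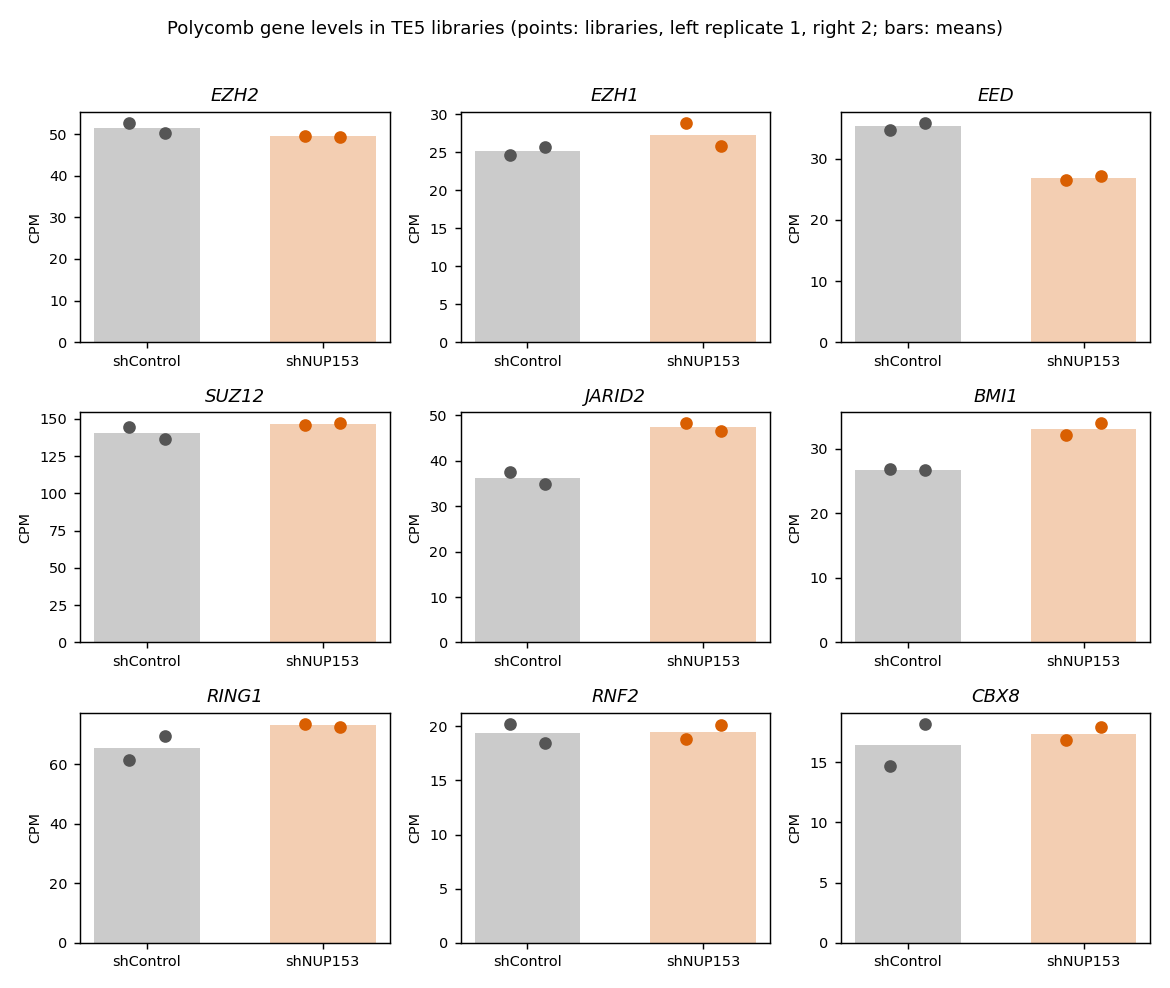
Level of each of the 9 Polycomb genes in CPM (vertical axis from 0, own scale per gene) in shControl (grey) and shNUP153 (orange), with points for libraries and bars for means of 2. EED is lower and JARID2 and BMI1 are higher in both shNUP153 libraries than in either shControl library, while the points of RNF2 and CBX8 overlap.

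EZH2 (ENSG00000106462), the main catalytic subunit of PRC2 in dividing cells, measured 52.7 and 50.4 CPM in shControl and 49.7 and 49.5 in shNUP153. Both shNUP153 values lay just under the lower shControl value. The log2 fold change was −0.06 (SE 0.06, edgeR adjusted p = 0.558), a fold of 0.963 with a 95% interval of 0.880 to 1.05. Its sign turned with total-count scaling (0.01).
EZH1 (ENSG00000108799), the alternative catalytic subunit, measured 24.6 and 25.7 CPM in shControl against 28.8 and 25.8 in shNUP153. One shNUP153 library stood above the rest and the other sat beside the controls. The log2 fold change was 0.12 (SE 0.08, adjusted p = 0.286).
Within a library the ratio of EZH2 to EZH1 counts needs no scaling. It was 2.14 and 1.96 in shControl and 1.72 and 1.92 in shNUP153, a difference of −0.17 in the mean log2 ratio, with SDs of 0.09 and 0.11. The ratios did not overlap, but the exact two-sided permutation test over 2 against 2 libraries gave p = 0.33, the smallest it can give (0.667 adjusted over the 2 ratios tested).

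EED (ENSG00000074266) was the member that fell. It is the WD-repeat subunit that reads the methylated histone tail and stimulates the enzyme. It measured 34.8 and 35.9 CPM in shControl and 26.6 and 27.2 in shNUP153 (35.3 ± 0.805 against 26.9 ± 0.411, SD, n = 2). Both knockdown libraries were well below both controls, and replicates differed far less than the groups. EED was 1.31-fold lower (log2 fold change −0.39, SE 0.08, adjusted p = 9.39e-05), and of all genes tested 23.6% had a larger change in either direction.
SUZ12 (ENSG00000178691), the scaffold that holds PRC2 together, did not pass. Its levels were 144 and 136 CPM in shControl and 146 and 147 in shNUP153. The log2 fold change was 0.06 (SE 0.05, adjusted p = 0.371; 95% interval −0.04 to 0.16). The pseudogene SUZ12P1, with which reads could be shared, was at 17.0 ± 1.3 CPM in shControl and 17.8 ± 1.5 CPM in shNUP153 (adjusted p = 0.66).
Relative to its partners EED was lower in both knockdown libraries. Its counts were 0.241 and 0.263 of those of SUZ12 in shControl and 0.182 and 0.185 in shNUP153. They were 0.659 and 0.713 of those of EZH2 in shControl and 0.535 and 0.549 in shNUP153. These 2 ratios were chosen after the values were seen and are given without a test.

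JARID2 (ENSG00000008083) rose most among the members. It measured 37.6 and 35.0 CPM in shControl and 48.2 and 46.5 in shNUP153 (36.3 ± 1.83 against 47.4 ± 1.23). All shNUP153 values were above all shControl values, 1.31-fold on average (log2 fold change 0.39, SE 0.07, adjusted p = 3.43e-05). A larger change in either direction was seen for 24.3% of genes. The antisense gene JARID2-AS1 had 4 to 15 counts per library, and no exon base of it overlapped one of JARID2 in GENCODE release 29. JARID2 thus moved the opposite way to EED, the core subunit it is known to work with, over the same libraries.

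On the PRC1 side, BMI1 (ENSG00000168283), the PCGF partner that activates the ligase, rose. It measured 26.8 and 26.7 CPM in shControl and 32.2 and 34.0 in shNUP153, 1.24-fold higher (log2 fold change 0.31, SE 0.08, adjusted p = 0.00213). The shControl libraries were nearly equal and both shNUP153 libraries lay above them. Without shNUP153 replicate 2 the call was lost (0.27, adjusted p = 0.0735). COMMD3, the gene directly upstream on the same strand, rose too, from 4.96 ± 0.382 to 7.15 ± 0.0797 CPM (log2 fold change 0.53, SE 0.15, adjusted p = 0.00538; 0.0551 with DESeq2). The read-through gene COMMD3-BMI1, which shares 1000 exon bases with BMI1 in GENCODE, was listed at 0 in all libraries. Whether any reads from it were counted for BMI1 or COMMD3, or left out, is not known.
RING1 (ENSG00000204227), 1 of the 2 ligase subunits, measured 61.4 and 69.5 CPM in shControl and 73.7 and 72.5 in shNUP153. Both shNUP153 libraries were above both controls, though the controls differed more from each other than the knockdown libraries did. The log2 fold change of 0.16 (SE 0.06) passed narrowly at adjusted p = 0.048, and was 0.07 (adjusted p = 0.454) without shControl replicate 1. It also missed the threshold without either shNUP153 library (0.296 and 0.201), with DESeq2 (0.145) and with no filter on low counts (0.103).
RNF2 (ENSG00000121481), the other ligase, measured 20.2 and 18.5 CPM in shControl and 18.9 and 20.1 in shNUP153. The groups overlapped, with a log2 fold change of 0.01 (SE 0.09, adjusted p = 0.94) and a 95% interval of −0.17 to 0.20.
CBX8 (ENSG00000141570) measured 14.7 and 18.2 CPM in shControl and 16.8 and 17.9 in shNUP153. Its control libraries enclosed the knockdown libraries, and the log2 fold change was 0.07 (SE 0.10, adjusted p = 0.65). The RNF2 to RING1 count ratio was 0.330 and 0.266 in shControl and 0.256 and 0.278 in shNUP153, which overlap (exact permutation p = 0.667, the same adjusted over the 2 ratios).

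**Figure D2:**
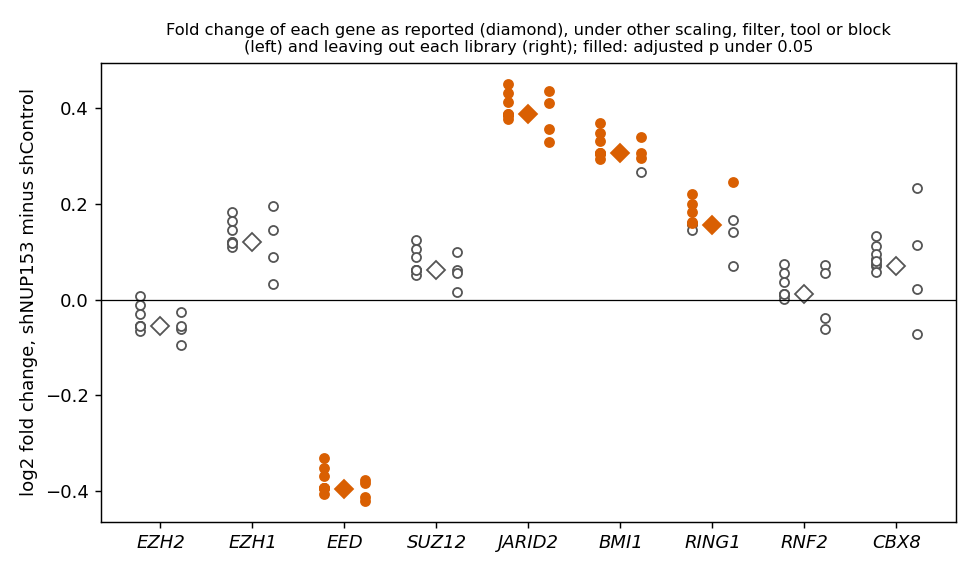
Log2 fold change (vertical axis) of each Polycomb gene as reported (diamond), under 8 other settings (left of it) and with 1 library left out in turn (right of it), filled where the adjusted p was under 0.05. EED and JARID2 stay filled at all points, BMI1 has 1 open point, and RING1 has open points on both sides.

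The plot of fold changes under each setting shows how firmly each member stands. EED ranged from −0.42 to −0.33 and JARID2 from 0.33 to 0.45 over 12 alternatives, and both passed in all 12. BMI1 passed in 11 (0.27 to 0.37) and RING1 in 7 (0.07 to 0.25). EZH2, EZH1, SUZ12, RNF2 and CBX8 passed in none of the 12. The lowest adjusted p among them was 0.0523, for SUZ12. CBX8 changed sign without shControl replicate 1 (−0.07). RNF2 changed sign without shControl replicate 2 (−0.06) and without shNUP153 replicate 2 (−0.04).

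Levels can be set side by side between genes only per length, and CPM was divided by the merged exon length in GENCODE release 29, which may not be the annotation the counts were made with. On that scale RING1 stood highest in shControl at 36.0 ± 3.14 CPM per kb, over a short merged length of 1.82 kb. SUZ12 followed at 21.4 ± 0.843 and EZH2 at 11.4 ± 0.371 CPM per kb. BMI1 (6.25) and JARID2 (6.03) overlapped each other in shControl, as did EED (5.03) and RNF2 (4.75), and CBX8 (3.95) and EZH1 (3.60). EED, above RNF2, CBX8 and EZH1 in shControl, was last of the 9 in shNUP153 at 3.83 ± 0.0585 CPM per kb, where it overlapped EZH1 (3.91 ± 0.308). JARID2 (7.87) and BMI1 (7.73) also overlapped each other in shNUP153.

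**Figure D3:**
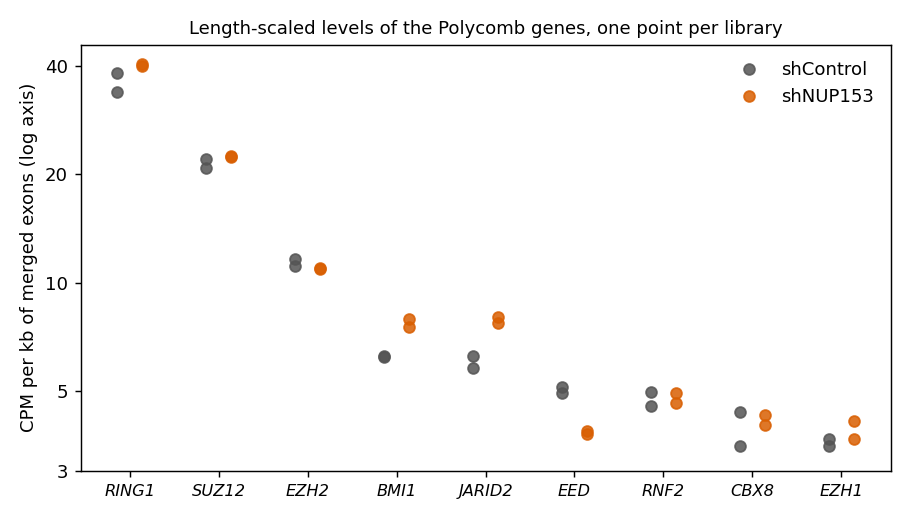
CPM per kb of merged exons (log axis) for the 9 genes in the order of their shControl means, 1 point per library, shControl grey and shNUP153 orange. RING1, SUZ12 and EZH2 lead in both groups, and EED drops from beside RNF2 to the level of EZH1.

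The genes whose log2 CPM over the 4 libraries lay nearest to EZH2 by Euclidean distance, centred on the shControl mean, were DUX4L9, ABLIM1 and ANO6 (distance 0.00578 to 0.012). For EZH1 they were LYSMD2, VIPAS39 and NUS1 (0.0247 to 0.0288). With 4 libraries such likeness rests on 4 values per gene. None of the 6 passed the test, which says little, as they were chosen for closeness to genes that did not pass. DUX4L9 averaged only 0.864 CPM, a level at which few reads set the values.

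Other Polycomb genes came from 5 lists, 52 genes of which 50 were tested. In all 15 rose and 7 fell, with a median log2 fold change of 0.06 against 0.01 over all genes tested. EZHIP and ASXL3, at 0 counts in all libraries, were not tested. The lists were not tested as sets, and 44% of their tested genes passed against the 32.4% of all genes given above. Without shNUP153 replicate 1 only 6 rose and without shNUP153 replicate 2 only 4 fell.

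Among 9 tested PRC2 subunits beyond the core members, 3 fell and 2 rose (55.6% called, against 32.4% of all genes tested). RBBP4, the histone chaperone that PRC2 shares with other complexes, fell from 141 ± 1.56 to 111 ± 4.85 CPM, 1.27-fold lower (log2 fold change −0.34, SE 0.05, adjusted p = 2.17e-06). Its paralog RBBP7 fell less, from 594 ± 12.9 to 544 ± 14.7 CPM (−0.13, adjusted p = 0.0212), and missed the threshold under total-count (0.268) and upper quartile scaling (0.135), among genes averaging at least 5 CPM (0.0537), and without either shNUP153 library (0.244 and 0.0624). The 3 Polycomb-like proteins, which bind unmethylated CpG-rich DNA and trimethylated lysine 36 of H3, went different ways. PHF19 fell from 144 ± 2.96 to 114 ± 2.62 CPM (−0.34, SE 0.05, adjusted p = 1.99e-06), while PHF1 rose from 26.0 ± 1.53 to 31.5 ± 1.32 CPM (0.28, adjusted p = 0.00679). MTF2, named after its values were seen, rose from 39.9 ± 2.36 to 45.6 ± 0.678 CPM (0.20, adjusted p = 0.0257). The calls for PHF1 (adjusted p = 0.0504 and 0.152) and MTF2 (0.224 and 0.143) were lost without 1 library of either group, shControl replicate 1 and shNUP153 replicate 1 for PHF1, shControl replicate 2 and shNUP153 replicate 1 for MTF2. MTF2 also missed the threshold without shNUP153 replicate 2 (0.207), with DESeq2 (0.101) and with no filter on low counts (0.0642).

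Of 11 other subunits of canonical PRC1, 3 rose and 1 fell (36.4% called, against 32.4% of all genes tested). The polyhomeotic gene PHC2 rose from 64.5 ± 6.34 to 75.4 ± 4.48 CPM (0.23, adjusted p = 0.00523; 0.152 without shControl replicate 2 and 0.232 without shNUP153 replicate 1). SCML2 rose 1.90-fold but was low, its shControl libraries holding 45 and 61 counts and its shNUP153 libraries 124 and 81 (adjusted p = 0.000941; 0.0916 without shNUP153 replicate 1). SCMH1 fell from 22.5 ± 2.51 to 17.1 ± 2.14 CPM (−0.39, adjusted p = 0.00232; 0.138 without shNUP153 replicate 2).

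Variant PRC1 complexes, which hold RYBP or YAF2 in place of a CBX protein, gave 5 rises and 2 falls in 18 genes. That is 38.9% called, against 32.4% of all genes tested. E2F6, a repressor of the E2F family found in 1 variant complex, rose most, from 11.8 ± 1.41 to 16.9 ± 1.38 CPM (log2 fold change 0.53, SE 0.11, adjusted p = 0.000184). RYBP, which stimulates the ligase, rose from 26.0 ± 0.0765 to 33.4 ± 1.93 CPM (0.36, SE 0.08, adjusted p = 0.000463). The alternative PCGF partners split, PCGF3 rising from 30.3 ± 0.246 to 38.4 ± 0.851 CPM (0.34, adjusted p = 0.000337) and PCGF5 falling from 90.7 ± 5.19 to 74.4 ± 2.60 CPM (−0.29, adjusted p = 0.000184). DCAF7, named after its values were seen, was the other gene that fell (−0.20, adjusted p = 0.000946; 0.0829 without shNUP153 replicate 2). BMI1 and PCGF3 thus rose, PCGF5 fell, and PCGF2, PCGF1 and PCGF6 had log2 fold changes of 0.01, 0.07 and −0.08 that did not pass.

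Enzymes that remove the Polycomb marks were also measured. KDM6B, a demethylase of H3 lysine 27 known to be induced by inflammatory signals, rose in both libraries by nearly the same amount. It measured 25.0 and 25.1 CPM in shControl and 44.8 and 45.1 in shNUP153, 1.79-fold higher (log2 fold change 0.84, SE 0.07, adjusted p = 2.26e-11). The other demethylase tested, KDM6A, rose by 0.17 (SE 0.06, adjusted p = 0.0188), from 91.6 ± 5.80 to 103 ± 3.58 CPM, and its call was lost without shControl replicate 2 (adjusted p = 0.228), without either shNUP153 library (0.296 and 0.0783) and with DESeq2 (0.0677). In the list around BAP1, the H2A deubiquitinase that opposes PRC1, 3 of 10 tested genes rose and 1 fell. That is 40% called, against 32.4% of all genes tested. FOXK1, which brings BAP1 to DNA, rose from 112 ± 1.93 to 137 ± 2.17 CPM (0.29, adjusted p = 2.16e-05), and FOXK2 (0.14, adjusted p = 0.0315) and MBD5 (0.33, adjusted p = 0.0446) passed narrowly, both losing the call without shControl replicate 1 (0.0816 and 0.201), without either shNUP153 library (0.0663 to 0.33), with DESeq2 (0.0815 and 0.186) and with no filter on low counts (0.0826 and 0.0847). HCFC1, a BAP1 partner, fell from 196 ± 10.2 to 166 ± 1.65 CPM (−0.24, adjusted p = 0.000218). BAP1 itself was at 91.9 ± 0.744 and 95.3 ± 3.63 CPM (0.05, adjusted p = 0.507).

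EED and EZH2 are known targets of E2F factors, and genes that follow proliferation were lower in the same libraries. Of 14 such genes 13 fell and 0 rose by edgeR (0 also at an unadjusted p under 0.05 and by DESeq2). That is 92.9% called, all lower, against 17.4% lower among all genes tested. Among them were RRM2 (−0.96), MCM6 (−0.68), MCM7 (−0.63) and MCM4 (−0.58), and the median log2 fold change of the 14 was −0.57. Their summed level was 5379 and 5476 CPM in shControl and 3758 and 3861 CPM in shNUP153. EED (−0.39) lay within the range of these genes (−0.96 to −0.13), whereas EZH2 (−0.06) lay outside it. No form of the E2F site searched was in the upstream windows of EED or EZH2, and TTTCCCGC was in that of SUZ12. The part of the proliferation genes in the change of EED or of any other member was not tested.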

How the data were processed

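RNA of 4 TE5 libraries (2 shControl, 2 shNUP153) was analysed from a deposited table with 1 column per library. Although labelled FPKM, the values the authors deposited are integers whose sums vary by library, and they were treated as raw counts. Per the submitters' processing notes, Bowtie2, deepTools, kallisto, DESeq2 and the hg19 build were used, with no roles stated. The sources used here do not name the counting tool, annotation or strand setting, so reads of overlapping genes cannot be told apart. The authors' log2 ratio was recomputed from the deposited counts to within 4.3e-09 and carries no library size correction. It was not used.

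Genes were kept by filterByExpr (minimum count 10, minimum total 15), which left 16817, and tested across all genes with edgeR 4.0.16 in R 4.3.3 (TMM, quasi-likelihood, two-sided, Benjamini-Hochberg, threshold 0.05). The procedure was checked on simulated counts in which, unlike here, few genes changed. It recovered 24% of 1.2-fold, 52% of 1.3-fold, 64% of 1.5-fold and 80% of 2-fold changes there, and called 9 unchanged genes. Changes of all these sizes can thus be missed. SEs and 95% intervals were obtained from the log2 fold change and the F value. Replicates differed by more than sampling noise (chi-square per gene 3.57 and 3.09). Of 45 gene IDs listed more than once, the row with the most counts was kept. Named genes were all members, NUP153, up to 4 genes per list with the smallest p, the 3 nearest profiles of EZH2 and of EZH1, and others said to be chosen later. BAP1, PCGF1, PCGF2, PCGF6, COMMD3, COMMD3-BMI1, SUZ12P1, JARID2-AS1 and the cell type markers stand outside this rule, as partners, neighbours, copies or checks, and were chosen with values known. Another 2 genes the rule names are not reported here. Members and lists were chosen with earlier results of these data known. Alternatives used limma 3.58.1 and DESeq2 1.42.0. Depth was 22606593 to 27396268 counts.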

Additional observations from a re-analysis of the deposited data

How the results depend on the processing

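Under RLE, total-count and upper quartile scaling, limma-trend and a minimum average of 5 CPM, the members gave 3 higher and 1 lower, as reported. DESeq2 and no filter on low counts gave 2 and 1. Leaving out each library gave 1 to 3 members higher, the lowest without shNUP153 replicate 2, and 1 lower each time. For the 52 associated genes the counts ran from 6 to 14 higher and from 4 to 8 lower over the libraries left out, and no other setting moved them by over 1.5 times. Over all genes, 2521 were higher and 2927 lower. DESeq2 gave 1442 higher, and the libraries left out gave 1303 to 2327 higher and 1769 to 2874 lower. The EZH2 to EZH1 difference was −0.25 to −0.10 with a library left out, and that of RNF2 to RING1 −0.31 to 0.003. The numbers of the libraries did not pair them (correlation of same-numbered deviations over genes −0.00365). With the replicate block 3 members were higher and 1 lower, 15 and 7 associated genes, and 2530 and 2935 genes in all. The ratio differences (−0.17 and −0.15) cannot change with the block, since each group holds both numbers, so it does not check them. With 2 libraries per group the spread is pooled across genes, and a library left alone in its group is assumed to vary like the others.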

Other observations

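Trithorax-type genes, whose methyltransferases keep active genes on and counter Polycomb, are described first. Of 12 listed and tested, 3 rose and 0 fell by edgeR (1 lower at an unadjusted p under 0.05, and 0 by DESeq2), with a median log2 fold change of 0.07. That is 25% called against 32.4% of all genes tested, and the difference was not tested. Without shControl replicate 1, 1 was lower. None of the 3 calls held without shNUP153 replicate 1 or without shNUP153 replicate 2 (0 higher in each case). DESeq2 gave 1 higher, while total-count and upper quartile scaling, genes averaging at least 5 CPM and leaving out shControl replicate 1 gave 5. KMT2B, a lysine 4 methyltransferase of H3, rose from 60.1 ± 2.23 to 69.1 ± 2.13 CPM (SD, n = 2; 0.20, edgeR adjusted p = 0.00925), KANSL1 from 33.1 ± 0.265 to 38.8 ± 0.733 CPM (0.23, adjusted p = 0.0127) and KMT2D from 149 ± 1.61 to 163 ± 1.62 CPM (0.13, adjusted p = 0.04). The call for KMT2D was also lost without shControl replicate 2 (0.107), with no filter on low counts (0.105) and with DESeq2 (0.0858), and that for KANSL1 with DESeq2 (0.0594). DPY30, at 0.17, did not pass (adjusted p = 0.0697). It passed under total-count (0.0107) and upper quartile scaling (0.0211), among genes averaging at least 5 CPM (0.0257) and without shControl replicate 2 (0.038).

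Developmental regulators known as Polycomb targets in other cells were called about as often as all genes. Of 39 listed, 25 were tested, 4 rose and 4 fell (32% called, against 32.4% of all genes tested), with a median log2 fold change of 0.01, and 14 were too low to test. DESeq2, and leaving out shNUP153 replicate 2, gave 2 higher. TBX3 rose from 28.9 ± 0.419 to 39.5 ± 1.03 CPM (0.45, adjusted p = 9.44e-06) and ZIC2 from 27.2 ± 0.104 to 36.4 ± 0.523 CPM (0.42, adjusted p = 3.24e-05). FOXF1 fell from 18.3 ± 0.493 to 13.6 ± 0.568 CPM (−0.43, adjusted p = 0.000731). These 3 calls held under each of the 12 alternatives. Whether these genes carry Polycomb marks in TE5 cells was not measured.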
